A study of Mus musculus with 19 samples.

Results

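The transcripts described here encode neuropeptide precursors: Uts2 (urotensin 2), Calca and Calcb (the calcitonin gene-related peptides, CGRP), Adcyap1 (PACAP), Vip, Npy, Sst (somatostatin), Penk (the enkephalins), Cartpt (CART) and Gal (galanin). They are 10 of the 50559 genes in the deposited table and were taken by symbol. Uts2 is among them because it has the highest ratio to the input library, so its ratio is given as a description only. All 10 passed the filter on low counts that left 15572 genes for testing.

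The libraries came from spinal cords of 10-wk-old wild-type male mice on a C57BL/6J background that carried ChAT-Cre and 1 RiboTag fx allele (ChAT-Cre;RiboTag fx/+), which puts a hemagglutinin tag on ribosomes of cells that make or have made choline acetyltransferase. Precipitating the tag recovers mRNA bound to those ribosomes. Cords were collected at Zeitgeber time (ZT, hours after lights on) 0, 4, 8, 12, 16 and 20 in a 12-h light and 12-h dark cycle, with 3 biological replicates at each time, and the 18 immunoprecipitates shared the genotype, sex and age. A single library of pooled input, the homogenate before precipitation, was the reference. ChAT-Cre marks somatic motor neurons and also preganglionic and interneuron cholinergic cells, so a level is an average over all of them. In such bulk samples, fewer cells that make a transcript and less transcript per cell cannot be told apart.

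Neuropeptides are cut from longer precursors by prohormone convertases and carboxypeptidases inside dense-core vesicles, then released to act on G protein-coupled receptors over minutes rather than milliseconds. Spinal motor neurons are long known to contain CGRP, which acts at the neuromuscular junction, and urotensin 2 was first found in a fish caudal neurosecretory system. In mammals urotensin 2 is a cyclic peptide made in brainstem and spinal motor neurons. Enkephalin, somatostatin, neuropeptide Y and galanin are best known in the spinal cord from dorsal horn interneurons and sensory terminals.

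The sequences below show the end of the Uts2 coding sequence and how alike the CGRP genes are. Uts2 lies on chromosome 4 (150997097 to 151001810, plus strand, GENCODE M21 on GRCm38) and its single annotated transcript has 538 exonic bases. The last 54 coding bases, at chr4:151001624-151001677 in the last of 4 exons, contain the 6 codons of the cyclic core of the peptide, shown in capitals, and end 1 codon after it.
Uts2 coding end: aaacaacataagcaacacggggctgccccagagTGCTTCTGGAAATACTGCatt

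Calca (chromosome 7, 114631478 to 114636357, minus strand) and Calcb (chromosome 7, 114718643 to 114723365, plus strand) are neighbouring paralogs. Their most alike stretch of 90 coding bases differs at 3 positions, shown in capitals, which is an identity of 96.7%. In Calca it spans chr7:114632512-114634469 and in Calcb chr7:114721711-114722062, each with an intron between.
Calca: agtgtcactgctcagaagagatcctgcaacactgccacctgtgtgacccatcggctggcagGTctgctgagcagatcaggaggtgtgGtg
Calcb: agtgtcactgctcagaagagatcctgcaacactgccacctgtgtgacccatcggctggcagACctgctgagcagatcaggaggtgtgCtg

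The longest run shared without a difference was 61 bases. Of all windows of 31 bases in the annotated Calca transcripts, 1.97% also occurred in Calcb, and no window of 75 bases did. No window of 150 bases, the read length that the methods state, was shared either. These windows count exact matches only, so they do not exclude a read that fits both genes with mismatches. The count of Calca also pools the transcripts for CGRP and for calcitonin, which are splice forms of that gene. Uts2 lies within Camta1, which had a log2 ratio to the input of 0.70 against 4.73 for Uts2, and Penk overlaps A830012C17Rik, which was not tested. Each pair is on opposite strands. The library kit keeps strand, but the strand setting of the count was not given in the sources used here.

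Promoters of 8 of the 10 genes were matched in RefSeq (GRCm38.p6), and none was used for Calcb and Penk. Each covered 250 bases before to 50 after the start, and both strands were searched for the cAMP response element TGACGTCA, its core TGACG, which it contains, and the E-box CACGTG, to which clock proteins bind. The full element was in 2 of the 8, Sst and Cartpt, against 1.79% of all 32851 promoters. The core was in 6 of the 8, against 20.8% of all promoters. No promoter of the 8 held the E-box, which 7.15% of all promoters held. The stretch from 130 bases before to 30 after the start is shown for Sst and Cartpt, which hold the full element, for Gal, whose level varied most with time, and for Uts2. The response element or its core is in capitals.
Sst chr16:23890815-23890974, minus strand: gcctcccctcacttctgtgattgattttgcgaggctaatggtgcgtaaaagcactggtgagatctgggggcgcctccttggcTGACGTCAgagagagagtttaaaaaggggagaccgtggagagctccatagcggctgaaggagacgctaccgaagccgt
Cartpt chr13:99900654-99900813, minus strand: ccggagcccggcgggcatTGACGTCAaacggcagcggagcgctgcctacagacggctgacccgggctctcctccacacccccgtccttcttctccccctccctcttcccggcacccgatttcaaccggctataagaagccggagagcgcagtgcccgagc
Gal chr19:3414515-3414674, minus strand: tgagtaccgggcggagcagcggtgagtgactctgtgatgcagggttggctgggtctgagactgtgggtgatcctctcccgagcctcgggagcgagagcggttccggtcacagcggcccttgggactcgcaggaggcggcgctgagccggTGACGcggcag
Uts2 chr4:150996967-150997126, plus strand: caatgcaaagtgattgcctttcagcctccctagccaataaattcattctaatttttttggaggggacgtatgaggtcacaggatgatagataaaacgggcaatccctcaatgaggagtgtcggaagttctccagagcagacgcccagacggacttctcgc

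In Sst the element began 48 bases before the start and in Cartpt 112 bases before it, whereas in Gal the core began at base 20 after it. The stretch from Uts2 held neither. A match of letters is a description of the sequence and not a test of a binding site.

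Total counts of the immunoprecipitates ran from 6302140 (ZT20, replicate 1) to 22406850 (ZT4, replicate 2), and the input held 15239783. The common coefficient of variation between animals was 19.2% over the genes tested. Of 7 markers of cholinergic neurons, 6 met the rule for enrichment over the input given below, and their median ratio was 2.39 on the log2 scale. The exception was Chat itself (1.64), which did not lie above the input in every library. The 7 oligodendrocyte and the 6 astrocyte markers were all depleted. None of the 7 sensory ganglion markers was enriched and 5 were depleted, at a summed level of 7.18 to 11.5 CPM (counts relative to library sizes scaled by the trimmed mean of M-values) over the libraries of ZT0, ZT8 and ZT16.

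Scaled to exon length, the CGRP gene Calca and Uts2 were the most abundant of the 10, and Npy and Vip the least. In CPM without that scaling Calca was also highest (618 ± 91.4, SD, n = 18), but Penk (295 ± 60.0) stood above Uts2 (186 ± 26.9). Per kilobase of exon, Calca was highest at 367 ± 54.3 CPM per kb (SD, n = 18 immunoprecipitates) and Uts2 followed at 345 ± 49.9. These neighbours in the order differed by less than their spread. Penk stood at 180.3 ± 36.7, Calcb at 115.8 ± 17.4, Sst at 101.3 ± 18.6 and Cartpt at 75.3 ± 10.1. A gap separated these from Gal at 17.2 ± 6.87, Adcyap1 at 7.56 ± 1.45, Npy at 4.90 ± 1.86 and Vip at 0.562 ± 0.243. Calcb and Sst were also neighbours that differed by less than 1 SD. Exon length was the union over annotated transcripts, so a gene that uses a short transcript is set too low on this scale.

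Set against the pooled input, Uts2, both CGRP genes and Cartpt were severalfold higher in the precipitate and Npy was lower. A gene was called enriched or depleted where its mean CPM differed at least 2-fold from the input and all 18 immunoprecipitates lay on that side. By this rule 5 of the 10 were enriched (Uts2, Calca, Calcb, Cartpt and Gal) and 1 depleted (Npy), against 11.9% and 20.7% of the 20800 genes compared. With 1 input library there is no test, and Uts2 was chosen by this ratio.

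Uts2, a ligand of the urotensin receptor, had 134 counts in the input, a level of 7.09 CPM (exact 95% Poisson interval 5.94 to 8.40, which covers counting error only). In the 18 immunoprecipitates its lowest, median and highest levels on the same scale were 132, 188 and 221 CPM. This scale was set over the input and the immunoprecipitates together and differs slightly from the one used over time. The mean lay 26.5-fold above the input, with single libraries between 18.6-fold and 31.2-fold. No other gene of the 11361 that had 100 or more input counts reached this ratio, and the gene just below, Prph (peripherin), had 26.1-fold.

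Calca and Calcb encode the 2 forms of CGRP. Calca stood at 503, 605 and 787 CPM (lowest, median and highest immunoprecipitate) against 54.5 CPM in the input, a mean ratio of 11.5-fold. Calcb stood at 105, 145 and 193 CPM against 16.8, a mean ratio of 8.82-fold. Cartpt, named for a transcript regulated by cocaine and amphetamine, stood at 78.2, 98.4 and 116.8 CPM against 11.5, a mean ratio of 8.43-fold. The lowest library lay 9.24-fold above the input for Calca, 6.26-fold for Calcb and 6.78-fold for Cartpt.

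Gal was the weakest of the 5, at 6.55, 12.9 and 25.3 CPM against 5.82 in the input. The mean ratio was 2.34-fold but the lowest library stood only 1.13-fold above the input. Scaled by library totals, its log2 ratio was 0.90 and no longer 2-fold, which left 4 enriched genes.

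Penk lay above the input in all 18 libraries by a mean of 1.68-fold, short of the 2-fold rule. Adcyap1, which encodes PACAP, had a mean of 1.19-fold and was above the input in 13 libraries. Vip had 0.961-fold and was above it in 9. Sst had 0.769-fold and was below it in 17. Npy, with 209 counts in the input, stood at 0.686, 2.53 and 5.20 CPM against 11.1, so that its mean was 0.253 of the input and all 18 libraries lay below it.

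**Figure D1:**
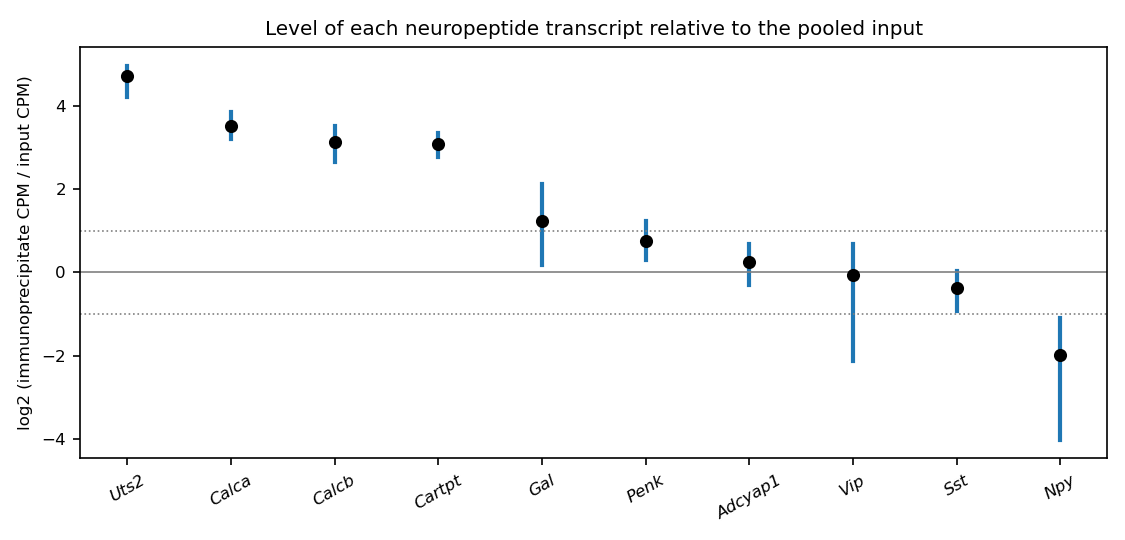
The log2 ratio of each transcript in the immunoprecipitates to the pooled input (vertical axis), ordered from the highest. Points give the mean of the 18 immunoprecipitates, bars run from the lowest to the highest library, and dotted lines mark 2-fold. Uts2, Calca, Calcb and Cartpt lie far above the input in every library, and Npy lies below it in every library.

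Across the day, Gal, Penk and Calcb varied with time and the other 7 transcripts passed neither the cosinor nor the test among time points, both with edgeR. In a 24-h cosinor fitted with the quasi-likelihood test of edgeR, 3 of the 10 passed a Benjamini-Hochberg false discovery rate (FDR) of 0.05, against 6.24% of all genes tested. In a test of any difference among the 6 time points 2 passed (Penk and Gal), against 6.74% of all genes. JTK_Cycle, a rank test against cosine curves, called 0 of the 10 once p was adjusted over all genes, against 0.0385% of all genes. Here p was first multiplied by the 18 templates of period and phase within a gene. The paper reports a far larger share of rhythmic genes by JTK_Cycle in this time course. The reason for that gap was not tested, so the 0 here does not speak against its result. At a p adjusted within the gene alone, JTK_Cycle called the same 3 as the cosinor, against 15.8% of all genes. Its best period was 20 h for each of these 3, whereas the cosinor was fixed at 24 h. At an unadjusted p under 0.05 the test among time points counted 4 (against 23.7% of all genes) and the cosinor 3 (against 26.7%). DESeq2 likelihood ratio tests called Gal, Penk and Calcb in both designs, against 20.9% of genes in the cosinor, where Vip and Npy received no adjusted p, and 19.5% among time points. The range of the time point means, in log2 CPM, had a median of 0.55 over the members and 0.54 over all genes tested.

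Galanin has a role in inhibition of transmitter release, and its transcript moved most. At ZT0, Gal stood at 6.44, 8.06 and 9.05 CPM in replicates 1, 2 and 3, at ZT4 at 10.3, 18.6 and 11.7, and at ZT8 at 20.97, 25.3 and 18.4. At ZT12 the values were 18.7, 14.3 and 15.4, at ZT16 they were 13.9, 7.86 and 16.7, and at ZT20 they were 7.86, 8.16 and 11.3. All 3 libraries of ZT8 lay above all those of ZT0, ZT16 and ZT20. In either direction, 34.7% of all genes did not overlap between ZT8 and ZT0 and 27.2% between ZT16 and ZT8. The share between ZT20 and ZT8 was not counted. The cosinor gave an amplitude of 0.66 on the log2 scale with a peak at ZT9.58 (FDR 0.0345, edgeR). The test among time points gave an FDR of 0.0228.

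Penk, the precursor of the enkephalins that act on opioid receptors, had a peak close to that of Gal. It stood at 248.7, 264 and 236 CPM at ZT0, at 259, 369 and 369 at ZT4, and at 308, 418 and 403 at ZT8. It stood at 299, 317 and 258 CPM at ZT12, at 236, 212 and 285 at ZT16, and at 264, 251 and 308 at ZT20. The libraries of ZT8 lay above those of ZT0 and ZT16 and overlapped with the other times. Over all genes, 34.7% did not overlap between ZT8 and ZT0 and 27.2% between ZT16 and ZT8. The cosinor amplitude was 0.27 with a peak at ZT7.07 (FDR 0.0426, edgeR), and the FDR among time points was 0.0393.

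Calcb, the gene for the second CGRP, had its highest mean at ZT0 and its fitted cosinor peak late in the night. It stood at 167.9, 191 and 143 CPM at ZT0, at 160, 133 and 158 at ZT4, and at 133, 123 and 125 at ZT8. It stood at 129.7, 136 and 103 CPM at ZT12, at 143, 140.4 and 154 at ZT16, and at 146, 186 and 161 at ZT20. The 6 libraries of ZT8 and ZT12 all lay below the 6 of ZT0 and ZT20. This grouping of times was made from these values, and its share over all genes was not counted. The cosinor amplitude was 0.24 with a peak at ZT22.4 (FDR 0.0373, edgeR), but the test among time points gave an FDR of 0.0703.

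These 3 calls lie near the threshold. Leaving out any one of 6 of the 18 libraries ended the cosinor call of Gal (ZT0 replicate 2, ZT8 replicates 2 and 3, and replicate 1 of ZT12, ZT16 and ZT20), with FDRs of 0.0510 to 0.103. For Calcb 9 libraries did so, with FDRs of 0.0565 to 0.121: ZT0 replicate 2, replicates 2 and 3 of ZT4 and ZT8, ZT12 replicate 1, ZT16 replicates 1 and 2, and ZT20 replicate 1. For Penk 11 libraries did so, with FDRs of 0.0506 to 0.127, namely those 9 together with ZT0 replicate 3 and ZT20 replicate 2. With the mean log2 CPM of the oligodendrocyte markers as a covariate the amplitudes were 0.67, 0.24 and 0.29 for Gal, Calcb and Penk, and the FDRs were 0.0558, 0.0558 and 0.0584. Across the 18 libraries Pearson's r with that score was 0.11, -0.06 and 0.01 for Gal, Calcb and Penk, given as a description. The calls among time points ended for both Gal and Penk without ZT0 replicate 1 (FDR 0.0620 and 0.0800), ZT8 replicate 2 (0.0836 and 0.150) or ZT8 replicate 3 (0.0745 and 0.152). Penk alone lost its call there without ZT0 replicate 3, ZT4 replicate 2 or 3, ZT12 replicate 2, or replicate 1 or 2 of ZT16 or ZT20, with FDRs of 0.0566 to 0.0916. JTK_Cycle, which called none, called Calcb (FDR 0.0363) and Gal (FDR 0.0434) without ZT16 replicate 3.

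**Figure D2:**
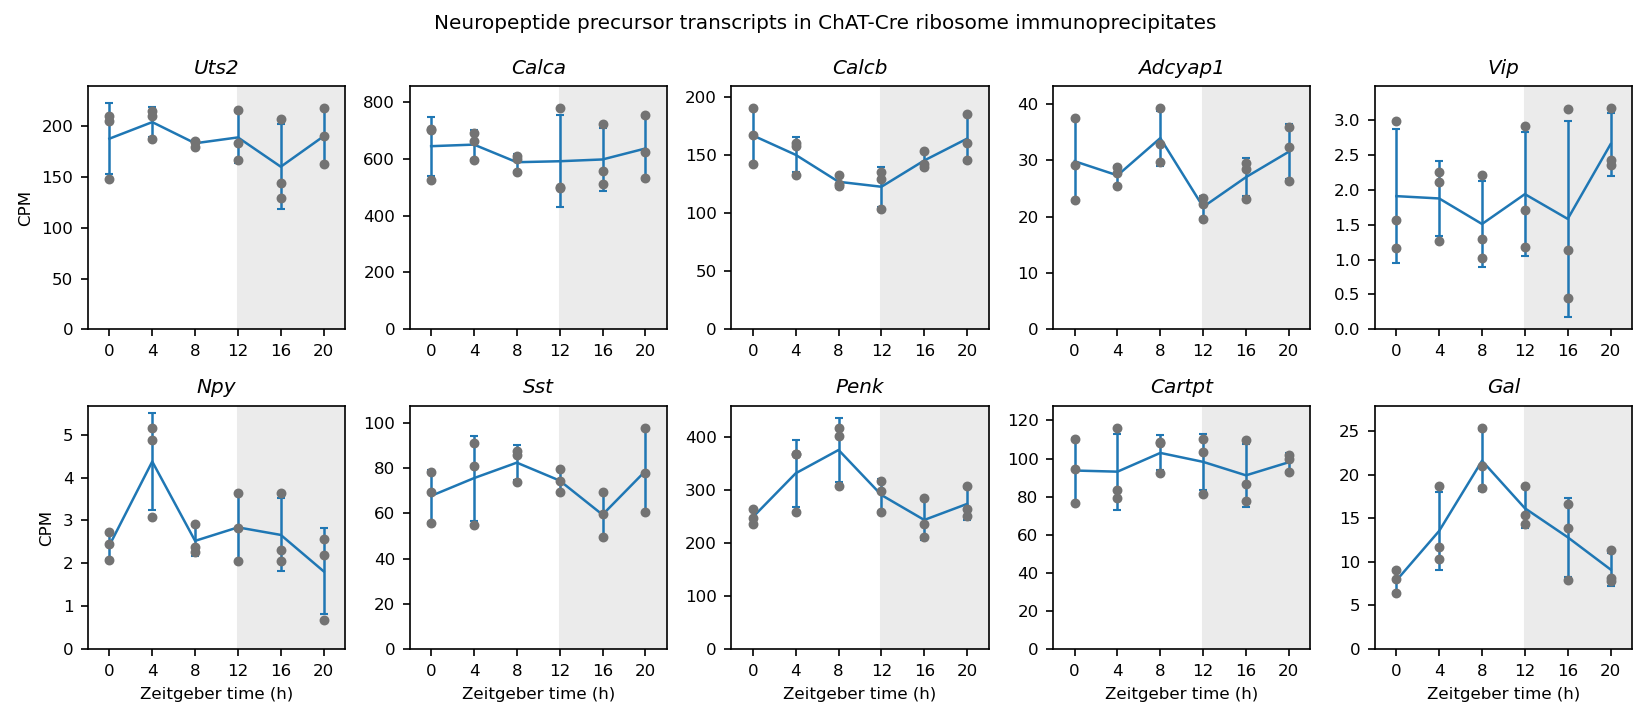
Levels of the 10 transcripts in CPM (vertical axes, from 0) against Zeitgeber time in hours (horizontal axes). Grey points are single immunoprecipitates, blue lines join time point means with bars of 1 SD (n = 3), and the dark phase is shaded. Gal and Penk are highest at ZT8 and Calcb is lowest at ZT8 and ZT12, while Calca and Cartpt keep their time point means within a narrow band.

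The light phase comparison, ZT8 against ZT0, held 3 of the 5 calls found among 150 comparisons of a member over the 15 pairs of time points (2.33% of such comparisons were called over all genes). Over all genes, 8.95% were higher at ZT8 and 9.02% lower, so 18% were called in either direction. Gal rose by 1.46 on the log2 scale (SE 0.26, FDR 0.00519, edgeR, 2.74-fold) and kept its call whichever single library was left out. Penk rose by 0.59 (SE 0.14, FDR 0.0106, 1.51-fold). Calcb fell by 0.39 (SE 0.12, FDR 0.0333), to 0.761 of its level at ZT0. The libraries of the 2 times did not overlap for these 3 members, as for 34.7% of all genes. The median difference was 0.10 over the members and -0.00296 over all genes tested. Outside this pair and ZT16 against ZT8, few genes of any kind were called. ZT16 against ZT4 had 8 higher and 2 lower, ZT12 against ZT0 had 4 and 1, and the rest had 0. The lack of member calls in those pairs therefore says little. Gal was not called from ZT8 to ZT20 (-1.23, SE 0.26, FDR 0.0587, edgeR) or from ZT0 to ZT12 (1.04, SE 0.26, FDR 0.399).

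For the other members the differences between ZT8 and ZT0 did not pass the test. Uts2 differed by -0.03 (SE 0.16, FDR 0.910), Calca by -0.13 (SE 0.17, FDR 0.635), Cartpt by 0.14 (SE 0.16, FDR 0.599) and Sst by 0.29 (SE 0.18, FDR 0.304). Vip, with 6 to 61 counts per immunoprecipitate, had an SE of 0.56, and Npy, with 13 to 117 counts, one of 0.41. The coefficients of variation between animals that the edgeR fit used for them were 40.9% and 35.1%, against 12.1% for Penk. These values follow the level of a gene and are not its own measured spread.

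From ZT8 to ZT16, into the dark phase, the transcripts that had been higher at ZT8 were lower again. This comparison uses the same ZT8 libraries, so it is not independent of the one above. Over all genes 9.11% were higher at ZT16 and 7.8% lower. Penk fell by 0.63 (SE 0.15, FDR 0.00924, edgeR) and Gal fell by 0.76 (SE 0.25, FDR 0.0429). Sst, the gene of an inhibitory peptide, had a difference of -0.47 (SE 0.18, FDR 0.0804), and Calcb one of 0.19 (SE 0.12, FDR 0.305). Uts2 had a difference of -0.20 (SE 0.16, FDR 0.442). For 5 members the libraries of the 2 times did not overlap, as for 27.2% of all genes.

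Of the 5 calls, leaving out single libraries ended all but that of Gal between ZT8 and ZT0. Penk between ZT8 and ZT0 lost its call without ZT0 replicate 1, ZT8 replicate 2 or ZT8 replicate 3 (FDR 0.0509 to 0.0761). Calcb lost it without ZT0 replicate 1 or 2 or ZT8 replicate 2 or 3 (FDR 0.0986 to 0.147). Penk between ZT16 and ZT8 lost it without ZT8 replicate 2 or ZT16 replicate 2 (FDR 0.0679 to 0.0696). Gal between ZT16 and ZT8 lost it without any one of 10 libraries, with differences of -0.86 to -0.50 and FDRs of 0.0501 to 0.243. With the replicate number as a block, that difference was -0.77 with an FDR of 0.0505. Leaving out 1 library also added calls. Without ZT16 replicate 3, Uts2 fell by 0.58 from ZT4 to ZT16 (SE 0.15, FDR 0.0248, edgeR), against a difference of -0.35 (SE 0.16, FDR 0.225) with all libraries. Without the same library Penk between ZT16 and ZT4, Sst between ZT16 and ZT8 and Gal between ZT20 and ZT8 were also called (FDRs 0.0288, 0.0385 and 0.0306). Without ZT8 replicate 1, Adcyap1 and Penk between ZT12 and ZT8 and Gal and Penk between ZT20 and ZT8 were called, with FDRs of 0.00737 to 0.0341. Gal between ZT20 and ZT8 was also called without ZT20 replicate 3 (FDR 0.0480).

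**Figure D3:**
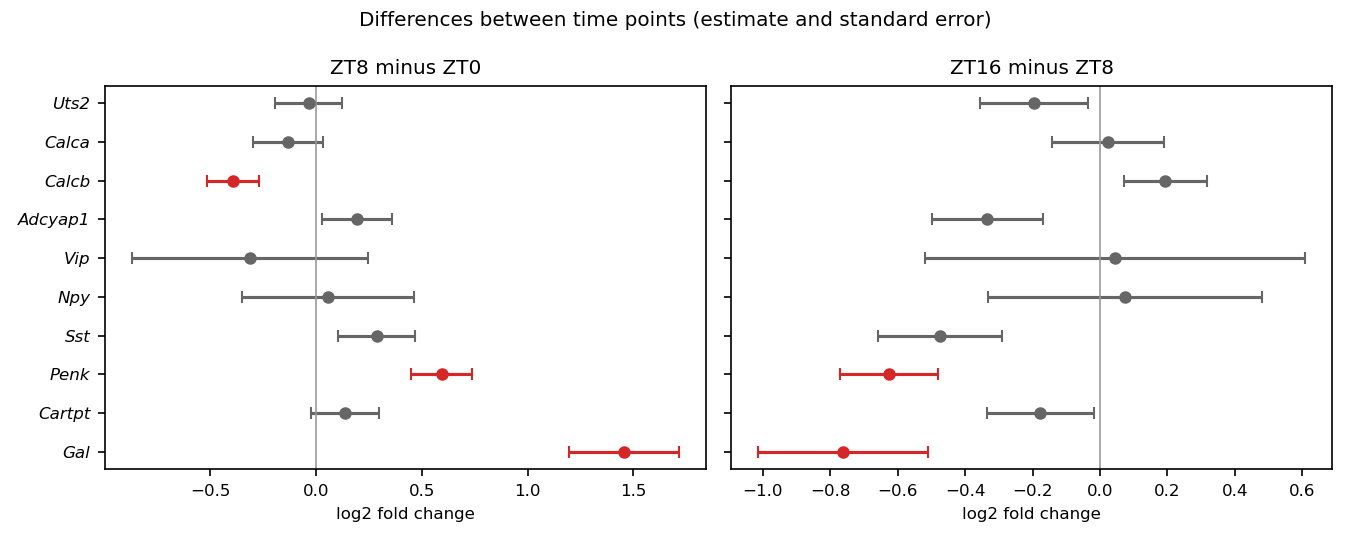
Log2 fold change of each member (horizontal axes, later time minus earlier time) between ZT8 and ZT0 on the left and between ZT16 and ZT8 on the right. Bars give 1 SE and red points passed an FDR of 0.05 over all genes. Gal and Penk are higher at ZT8 than at either other time, and Calcb is lower at ZT8 than at ZT0.

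Marker levels also differed between these times. Of the 7 cholinergic markers, 4 fell from ZT0 to ZT8 (median log2 difference over the list -0.64) and 5 rose from ZT8 to ZT16 (median 0.59). Over all genes, 9.02% were lower at ZT8 than at ZT0 and 9.11% higher at ZT16 than at ZT8. The summed level of the cholinergic markers was 4295 to 4768 CPM at ZT0 and 4230 to 4685 at ZT8. Most of this sum was Prph, with means of 2552 CPM at ZT0 and 3188 at ZT8 (FDR 0.0508, edgeR). The sum therefore hides the 4 that fell. Their means went from 56.1 to 16.9 CPM for Chat, 696 to 367 for Slc18a3, 306 to 196 for Slc5a7 and 930 to 595 for Ache. The 4 inhibitory neuron markers summed to 321 to 338 CPM at ZT0 and 246 to 299 at ZT8, and 2 of them (Gad2 and Slc32a1) fell. The 5 excitatory neuron markers summed to 53.6 to 60.0 CPM at ZT0 and 57.5 to 75.8 at ZT8, with 0 calls. The 4 erythrocyte markers were all called among time points, against 6.74% of all genes, and 0 of them between these times. They summed to 222 to 335 CPM at ZT0 and 233 to 428 at ZT8. From ZT0 to ZT8, 1 of 7 oligodendrocyte markers fell (Mbp, by 0.46, FDR 0.0141, edgeR). Of 5 microglia markers tested 1 rose (Cx3cr1, by 1.47, FDR 0.0150), and of 6 astrocyte markers 0 were called. Calcb also fell from ZT0 to ZT8. The part of other cells, or of the mix of cholinergic cells, in the values of Gal, Penk and Calcb was not tested.

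Uts2, Calca and Cartpt, 3 of the 4 transcripts with the highest ratio to the input, passed no test over the day with all libraries included. Uts2 stood at 205.5, 210.2 and 148 CPM at ZT0, at 187, 209.9 and 215 at ZT4, at 185, 179 and 186 at ZT8, and at 184, 216 and 167 at ZT12. It had its highest mean at ZT4 (204 ± 14.9 CPM, SD, n = 3) and its lowest at ZT16 (160.1 ± 41.7). At ZT16 the replicates stood at 144, 129 and 208 CPM, and at ZT20 at 163, 218 and 189.9, so that the libraries of these times overlapped. The range of time point means of Uts2 was exceeded or equalled by 68.3% of all genes tested, that of Cartpt by 92.6% and that of Calca by 94.6%. For the members that the cosinor called, the shares were 9.57% for Gal, 42.5% for Penk and 60.5% for Calcb. For the others they were 11.3% for Npy, 19.8% for Vip, 41.5% for Adcyap1 and 56.3% for Sst. A call therefore did not follow the size of the range alone. The cosinor FDRs of Uts2, Cartpt and Calca were 0.537, 0.899 and 0.684 (edgeR).

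The remaining transcripts passed neither the cosinor nor a comparison between times in the same edgeR fit with all libraries included. Adcyap1 stood at 33.9 ± 4.88 CPM at ZT8 and 21.7 ± 1.93 at ZT12 (SD, n = 3), a difference of -0.64 (SE 0.17, FDR 0.0730, edgeR). The DESeq2 Wald test gave the same difference an FDR of 0.0157. Sst ran from 59.4 ± 9.93 CPM at ZT16 to 82.4 ± 7.65 at ZT8, and that difference was called with the oligodendrocyte score as a covariate (-0.60, SE 0.18, FDR 0.0301, edgeR). Npy was highest at ZT4, at 3.08, 5.16 and 4.89 CPM, and lowest at ZT20, at 2.20, 0.676 and 2.57, which are 14, 13 and 38 counts. Vip lay between 0.455 and 3.17 CPM. Its libraries of ZT20 (2.36 to 3.17 CPM) lay above those of ZT4 (1.26 to 2.25) and ZT8 (1.02 to 2.21), but the difference from ZT8 did not pass the test (0.82, SE 0.55, FDR 0.410, edgeR). The share of all genes that separate between those times was not counted.

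Among the 45 pairs of members, 4 were correlated across the 18 immunoprecipitates at an adjusted permutation p under 0.05 (100000 resamples, Benjamini-Hochberg over the pairs). The points share library size and the composition of each precipitate. Uts2 and Calca had Pearson's r of 0.82 (p = 3e-05, adjusted p = 0.00135) and Spearman's rho of 0.86 (p = 1e-05, the smallest the resamples can give, adjusted p = 0.00045). Without the 2 libraries farthest from the median of Uts2, r was 0.87, and with time point means removed it was 0.90. At ZT12, for example, replicates 1, 2 and 3 of Calca stood at 497, 778 and 499 CPM, and replicate 2 was also the highest for Uts2.

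Sst and Penk had r of 0.78 (p = 0.0002, adjusted p = 0.0045) and rho of 0.82 (p = 7e-05, adjusted p = 0.00158), and r of 0.74 without 2 libraries. With time point means removed r was 0.82. Penk and Gal had r of 0.70 (p = 0.00139, adjusted p = 0.0184) and rho of 0.66 (p = 0.0035, adjusted p = 0.0394), and r of 0.58 without 2 libraries and 0.57 within times. Calcb and Gal were related inversely, with r of -0.68 (p = 0.00164, adjusted p = 0.0184), rho of -0.74 (p = 0.00074, adjusted p = 0.0111) and r of -0.72 without 2 libraries. Within time points r was -0.17.

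**Figure D4:**
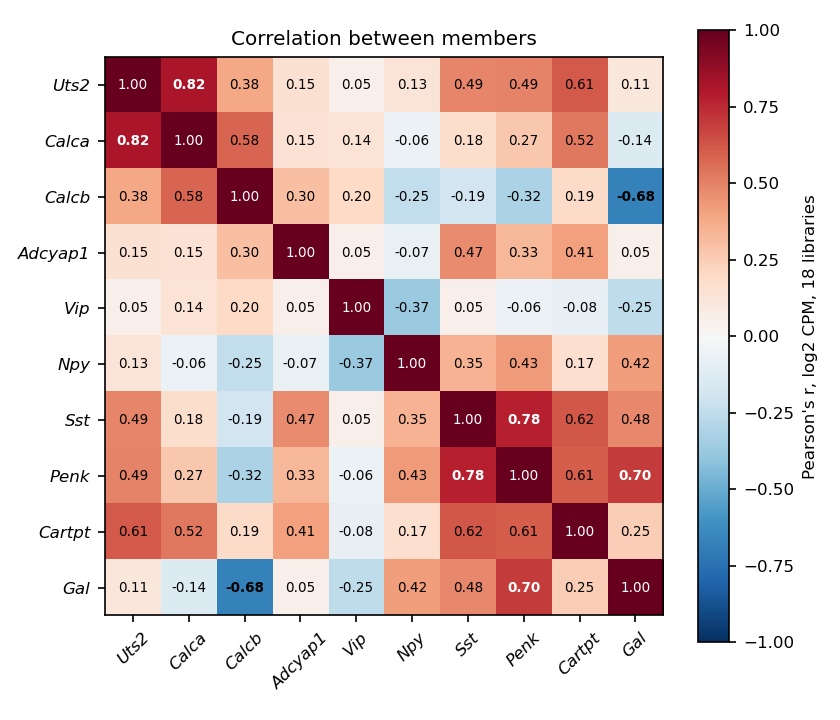
Pearson's r between the log2 CPM of each pair of members over the 18 immunoprecipitates, on a colour scale from -1 (blue) to 1 (red). Bold values passed an adjusted permutation p of 0.05. Uts2 with Calca (0.82), Sst with Penk (0.78), Penk with Gal (0.70) and Calcb with Gal (-0.68) are the pairs that passed.

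Calca and Calcb, the CGRP genes, were also set side by side as counts of Calcb per 100 of Calca, a ratio that library size does not affect and that was added after the time courses had been seen. The ratio averaged 26.1 ± 1.98 at ZT0, 21.7 ± 2.04 at ZT8, 21.4 ± 4.38 at ZT12 and 26.0 ± 1.37 at ZT20 (SD, n = 3). Time accounted for 38.4% of the variance of the log2 ratio, which did not pass a permutation test (p = 0.253, 100000 resamples). The input had 30.8 Calcb per 100 Calca, above the mean of 23.9 in the immunoprecipitates.

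The genes with the pattern most like that of a member were found by Spearman's rho of log2 CPM over the 18 libraries, as a description. For Uts2 they were Ucn (rho 0.87), Gm10269 (0.81), Ubtf (0.80), Clpp (0.78) and Antxr1 (0.77). Ucn, the precursor of urocortin, was also nearest to Calca (0.85). It stood at 8.98 ± 3.21 CPM (SD, n = 18) with a log2 ratio to the input of 4.62, which rests on 7 input counts. The nearest genes to the others were Bex1 for Penk (0.97), Zfp740 for Gal (0.91), Stk16 for Calcb (0.89), Gm35612 for Sst (0.89), Clec3b for Adcyap1 (0.87), Drap1 for Cartpt (0.84), Naa38 for Npy (0.81) and Fbl-ps2 for Vip (0.71).

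Of a list of 55 symbols of other neuropeptide genes (1 of them, Prokr2, a receptor), 24 were tested over time and 39 were compared with the input. Over all genes, 11.9% were enriched, 20.7% depleted, 6.24% called by the cosinor and 6.74% called among time points. Enriched were 4: Uts2b, the paralog of Uts2 (log2 ratio 4.40, 38.6 ± 4.53 CPM), Ucn, Nts (neurotensin, 2.43) and Cck (cholecystokinin, 1.81). Depleted were 12, among them Tac2 (-3.88) and Tac1 (-2.05), the tachykinin precursors. Edn3 was the 1 gene called by the cosinor (FDR 0.0410), and Nts, Cck and Agt were called among time points. From ZT0 to ZT8 Nts rose by 0.81 (SE 0.18, FDR 0.00776), Cck rose by 0.81 (SE 0.19, FDR 0.00953) and Tac1 rose by 0.80 (SE 0.28, FDR 0.0492). Pnoc, the nociceptin precursor, fell by 0.62 (FDR 0.0412) and Agt, the angiotensinogen gene that astrocytes express, fell by 1.68 (FDR 0.00589). The median difference over the 24 was -0.12.

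Among genes for the making and release of peptides, 3 were called by the cosinor, which called 6.24% of all genes. They were 0 of 7 granins, 1 of 11 processing enzymes and 2 of 15 genes of dense-core vesicle release. Of all genes compared with the input, 11.9% were enriched and 20.7% depleted. Of 7 granins, 4 were enriched over the input, led by Chga with a log2 ratio of 2.27, and 0 were called by the cosinor. Scg3, a sorting granin, fell by 0.52 from ZT0 to ZT8 (FDR 0.00714). Of 11 processing enzymes tested 0 were enriched and 4 depleted. Pcsk2, a convertase that matures neuropeptides, was called by the cosinor (FDR 0.0414, peak at ZT19.2) and fell by 0.75 from ZT0 to ZT8 (FDR 0.00585). Of 15 genes of dense-core vesicle release 7 were enriched, and Cadps and Ica1 were called by the cosinor with peaks at ZT20.2 and ZT18.1.

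Of 24 genes for receptors of these peptides 17 were tested over time, and the cosinor called 1 of them, against 6.24% of all genes. Of 22 compared with the input 2 were enriched and 8 depleted, against 11.9% and 20.7% of all genes compared. Vipr2, a receptor of VIP and PACAP, had a log2 ratio of 2.59 and was the 1 receptor called by the cosinor (FDR 0.0373, peak at ZT19.2). It fell by 0.89 from ZT0 to ZT8 (SE 0.20, FDR 0.00870) and rose by 0.95 from ZT8 to ZT16 (SE 0.20, FDR 0.00823). Galr2, a galanin receptor, was the other enriched gene, at 2.02 CPM, but it had only 3 counts in the input. Uts2r, the receptor of urotensin 2, stood at 0.379 CPM with 1 count in the input and met neither rule.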

How the data were processed

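Spinal cord ribosome-bound mRNA of 18 immunoprecipitates and 1 pooled input was analysed. Per the labels and methods, the authors aligned paired-end reads with STAR 2.7.5 to mm10 and quantified genes with RSEM. The deposited values are expected counts, not normalized; of the 190 values of the members 0 had a fraction. Counts were rounded, filtered with filterByExpr over time points and scaled by TMM. edgeR 4.0.16 (R 4.3.3) quasi-likelihood tests gave a 24-h cosinor, differences among time points and 15 pairs in the same fit, adjusted by Benjamini-Hochberg over 15572 genes. JTK_Cycle used periods of 20, 24 and 28 h (18 templates). Log2 CPM had a prior count of 2. DESeq2 1.42.0 was an alternative. The input ratio has no test. Replicate numbers are labels only, as same-numbered libraries correlated between -0.15 and 0.18 after removal of time point means. The samples were labelled biological replicates, and the methods describe homogenizing 1 spinal cord per vessel. The tests across genes were run on simulated data with a fixed spread and an amplitude above those of Gal, Penk and Calcb. That run therefore does not gauge calls near the threshold. Members and lists were chosen with earlier results of these data known. Named beside the members were the genes most correlated with each and listed genes past a threshold or of high level. Total counts per library set the precision.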

Additional observations from a re-analysis of the deposited data

How the results depend on the processing

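The members called by the 24-h cosinor numbered 3 under the other scalings, both other count filters, the replicate block and the DESeq2 likelihood ratio test. With the oligodendrocyte score as a covariate the count was 0, and leaving out 1 library or 1 replicate number gave 0 to 3. Members called among time points numbered 2, 3 (with Calcb) under library totals and the DESeq2 likelihood ratio test, and 4 (with Calcb and Adcyap1) with a filter of at least 1 count in total, where the prior degrees of freedom of edgeR became infinite. Leave-outs gave 0 to 2. Pair calls numbered 5, 10 with the DESeq2 Wald test, 16 with a filter of at least 1 count (added after seeing the data), 4 with the replicate block or library totals, 6 with a filter of at least 10 counts (adding Gal between ZT20 and ZT8, FDR 0.0383) or the oligodendrocyte covariate (adding Sst between ZT16 and ZT8), and 0 to 9 under leave-outs. JTK_Cycle called 0, 3 with adjustment within the gene alone, and 0 to 2 under leave-outs. The replicate block changed no call other than that of Gal between ZT16 and ZT8. Scaling by library totals gave that difference as -0.74 with an FDR of 0.0514. Gal between ZT8 and ZT0 was called without each single library but not without replicate 2 or replicate 3 of all times (FDR 0.0891 and 0.0679). At a fold of at least 4 the depleted members numbered 0. No called difference between times changed sign in any alternative run. The cause of these shifts was not tested.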
